A study of Mus musculus with 4 samples.

Results

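The genes described here build and run the neuronal cytoskeleton: tubulins, kinesin and dynein motors, microtubule-associated proteins, stathmins, neurofilaments, cytoplasmic actins and regulators of actin filaments. They were chosen by gene symbol alone, from the platform's annotation, and not by any measured value. The rule took 111 probe sets for 79 genes, out of 10833 probe sets for 8251 genes that carry 1 symbol. A probe set is the group of short oligonucleotides that reads 1 transcript. For the description the genes were put into 14 classes by symbol. All were measured in RNA of hippocampal area CA1, taken from young male C57BL/6J mice. The mice were handled, received no other treatment and served as controls for mice that were shocked. There were 4 single-channel arrays, 1 each for RNA taken 1, 2, 4 and 6 hr after the shocked mice had their last shock. How many mice stand behind each array was not stated, and no time has a replicate, so extraction time cannot be told apart from any other difference between the samples or arrays.

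Microtubules are hollow polymers of alpha and beta tubulin that give axons and dendrites their tracks, and gamma tubulin seeds them. Kinesins mostly carry cargo outward along these tracks and cytoplasmic dynein carries it toward the cell body, while tau and related proteins bind the lattice and stathmins bind free tubulin. Neurofilaments fill axons and set their calibre. In dendritic spines, actin filaments are branched by the Arp2/3 complex, capped by capping protein, fed with monomers by profilin and severed by cofilin.

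After the scaling done before deposit, the median intensity was 173 at 2 hr and 198 to 204 at the other times. The ratio of 3' to 5' signal, which grows as RNA or its labelling is less complete, was for the Gapdh control 4.84, 7.56, 6.25 and 4.89 at 1, 2, 4 and 6 hr, and for the Actb control 3.44, 3.20, 3.24 and 2.99. Of 9 listed markers of CA1 pyramidal neurons 6 were measured, and their summed intensity was 10983, 13370.0, 10854 and 10859 in time order. Wfs1, a defining marker of CA1, read 1753, 2594, 2574 and 1668. Pou3f1 and Lefty1 were lowest at 2 hr and Dcn at 4 hr, so the CA1 markers did not share an order. No measured marker of CA1 lay under the floor on all arrays. Choroid plexus and ependymal markers, with 4 of 5 measured, summed to 1135, 935 and 4154 at 1, 2 and 4 hr and to 1210.5 at 6 hr. The 4 hr sum was high through Ttr alone (3217, against 140.3 to 196 at the other times); Foxj1, Folr1 and Kl were not highest at 4 hr. In such tissue samples fewer cells of a type and less RNA per cell cannot be told apart.

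Cytoskeletal probe sets were bright more often than probe sets in general. Of the 111 probe sets 38.7% had a mean intensity of 1000 or more, against 15.2% of all 12422 probe sets. The median of the probe sets' mean intensities was 642, against 194 for all. A filter on dim probe sets (mean log2 intensity above the 40th percentile, with values under 54.6 set to that floor) was passed by 79 of the 111, or 71.2%, for 63 of the 79 genes. The other 32 did not pass, and 7 of them were under the floor on all 4 arrays. Over the 79 that passed, the median SD of log2 intensity across the 4 arrays was 0.216, against 0.286 for the 7453 probe sets tested. This SD spans 4 times and is not a replicate error. Intensity depends on the oligonucleotides as well as on the transcript, so a brighter class is not shown to be more abundant.

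**Figure D1:**
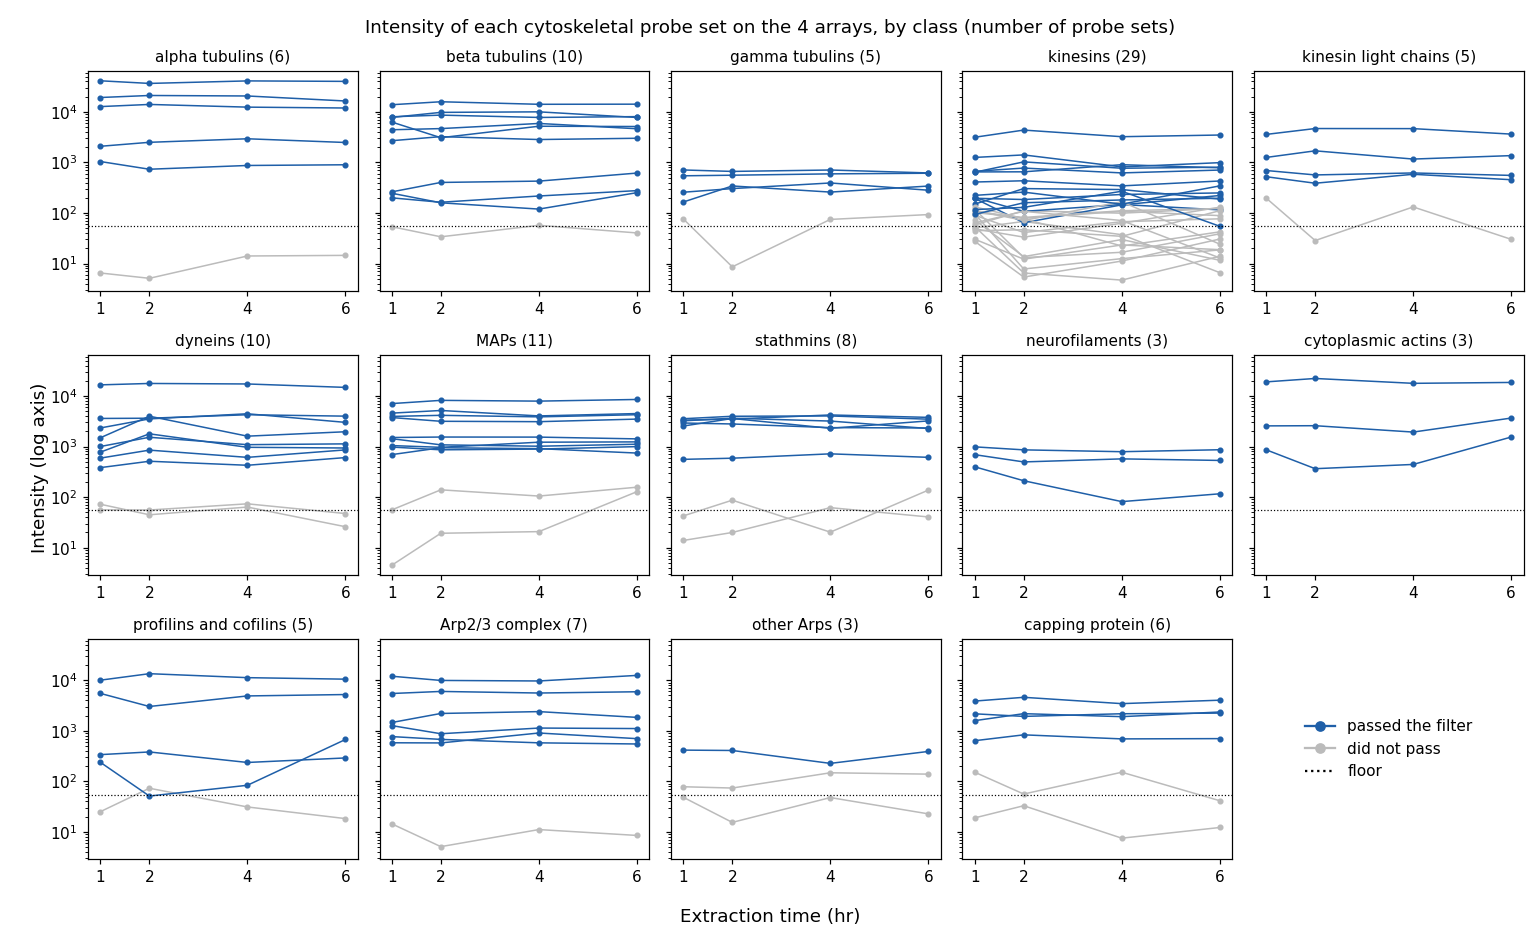
Intensity (log axis) of each of the 111 probe sets at 1, 2, 4 and 6 hr, 1 panel for each of the 14 classes, with the number of probe sets in the panel title. Blue lines passed the filter, grey lines did not, and the dotted line is the floor at 54.6; most blue lines are nearly level, and the grey lines lie mainly in the kinesin panel.

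Because bright probe sets vary less, the spread was also compared within bands of mean intensity. Over 3000, the median SD of log2 intensity was 0.148 for 26 cytoskeletal probe sets, against 0.161 for all 554 tested. From 1000 to 3000 it was 0.234 for 17, against 0.199 for all 1330, and from 300 to 1000 it was 0.220 for 24, against 0.268 for all 3042. From 100 to 300 it was 0.498 for 12, against 0.462 for all 2527. Within bands the cytoskeletal genes were thus above the background in some and below it in others. A range of 2-fold or more between the lowest and the highest array was seen in 14 of the 79, or 17.7%, where the share over all probe sets tested was 25.3%. In the band from 100 to 300 these were 9 of 12 (75%, against 52.2% of all). With the 1 hr or the 2 hr array left out the count was 9, while the share over all probe sets was 17.2% in each case.

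**Figure D2:**
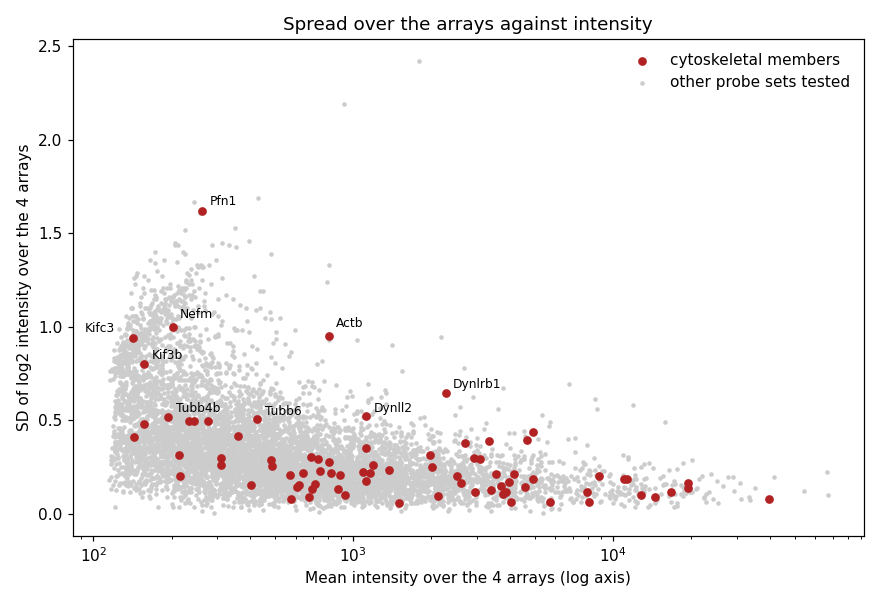
SD of log2 intensity over the 4 arrays against mean intensity (log axis) for the 79 cytoskeletal probe sets that passed the filter (red) and the other probe sets tested (grey). Cytoskeletal probe sets with an SD of 0.5 or more are named; Pfn1 stands highest of the red points at 1.62, and those over 3000 lie mostly near the base of the plot.

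No cytoskeletal gene changed in a straight line with extraction time past the threshold. Of the 79 probe sets 0 passed limma's test of the slope after Benjamini-Hochberg adjustment over all 7453, where 0 of all (0%) passed, and the smallest adjusted p among the 79 was 0.935. At an unadjusted p under 0.05 there were 2 of the 79 (2.53%), against 382 of all (5.13%). They were Tubb6 and Nefm. Ordinary least squares and an intensity-dependent robust prior each gave 0 after adjustment and 2 unadjusted, against 333 and 330 unadjusted of all 7453. Slopes were above 0 for 42 and below 0 for 37, and their median was 0.007 (log2 per hr), against 0.002 for all. Standing apart is used here for an array whose value was 2-fold or more (1 log2 unit) higher, or lower, than the nearest of the other 3 values. There were 3 such cases above (background 1.36% of all tested) and 2 below (background 6.37%), in Pfn1, Dynlrb1, Kif3b and, both ways, Kifc3. Pfn1 and Kifc3 passed the filter only with the array on which they stood above the others. The low value of Kifc3, 54.6 at 6 hr, was that of the floor. Quantile normalization left 1 above and 1 below, and a filter at the 60th percentile left 1 above and 0 below.

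The cytoskeletal genes as a group lay slightly high at 2 hr and slightly low at 1 hr. The median difference between an array and the other 3 was -0.09, 0.11, -0.02 and 0.01 log2 units at 1, 2, 4 and 6 hr, against 0.03, -0.01, 0.04 and 0.02 for all probe sets tested. Of the 79, 36.7% were highest at 2 hr, against 24.4% of all, and 38.0% were lowest at 1 hr, against 24.3% of all. Setting the arrays to a common median moved the median of all probe sets by over 0.1 at 2 hr, to 0.21, and that of the cytoskeletal genes to 0.32. The excess over all probe sets at 2 hr was then 0.11, where it was 0.12 on the deposited scale and 0.04 after quantile normalization. With no filter on dim probe sets the cytoskeletal genes' value at 2 hr was 0. The Gapdh ratio was highest (7.56) and the median intensity lowest (173) at 2 hr as well, and their part in this difference was not tested. Cytoskeletal probe sets that passed were also brighter, with a median mean intensity of 1119 against 460 for all tested. The differences were not compared within bands of intensity, so the part of brightness was not tested.

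Alpha tubulins gave the brightest signals of the set and were among its steadiest. Tuba1a, the main alpha tubulin of growing neurons, read 41248, 36570.3, 41014 and 40142 at 1, 2, 4 and 6 hr on its brighter probe set, a range of 1.13-fold, and 12726, 14039, 12418 and 11934 on its second. The first was lowest and the second highest at 2 hr, so the probe sets did not share a pattern. Tuba1c read 19255, 21108, 20641 and 16431, and Tuba4a, an isotype of mature neurons and other tissues, read 2087, 2501, 2938 and 2481. Tuba8 read 1042, 734, 871 and 899 and had the largest SD of log2 intensity in the class, 0.208. A second Tuba4a probe set lay between 5.1 and 14.5, under the floor on every array, so the same gene was read at both ends of the scale. The probe sets of Tuba1c and the second of Tuba1a carry the platform's suffix for a sequence family, so each may read several of these closely similar genes.

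Beta tubulins were split between steady and variable probe sets. Those of Tubb3 and Tubb6 and the brighter ones of Tubb2a and Tubb5 carry the platform's suffix for a sequence family. Each may thus read several of these closely similar genes. Tubb3, the neuronal isotype used as a marker of neurons, read 8004, 8630.0, 7766 and 8060.5, a range of 1.11-fold, and its second probe set read 2691, 3239, 2839 and 3008. Both were highest at 2 hr. Tubb2a, a major brain isotype, read 13859, 15865, 14134 and 14213, but 199, 163, 217 and 277 on its second probe set. Tubb5, a widely expressed isotype, read 7777, 9781, 10019 and 7756, and both of its probe sets were highest at 4 hr, the second at 5902 against 4432, 4672 and 4641 at 1, 2 and 6 hr.

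Tubb6, Tubb4a and Tubb4b each spanned more than 2-fold. Tubb6, a minor isotype in brain, read 262, 402, 427 and 616 at 1, 2, 4 and 6 hr, the only beta tubulin probe set in order of time among those tested. Its slope was 0.21 ± 0.07 log2 units per hr (SE; adjusted p from limma = 0.935), and the range of 2.35-fold was 1.53-fold without the 1 hr array. Tubb4a, an isotype of neurons and oligodendrocytes, read 6292, 3085, 5200.4 and 5136. Only the 2 hr value stood off, 0.84 log2 units below the mean of the others, and the range of 2.04-fold was 1.22-fold without that array. Oligodendrocyte markers, with 8 of 9 measured, summed to 26341, 25893, 25046 and 19833, mostly from Mobp and Mbp, and their part was not tested. Tubb4b read 246, 159, 119 and 252, with the high values at 1 and 6 hr. The pseudogene Tubb2a-ps2 read 53.5, 33.8, 57 and 40.3 and did not pass the filter.

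Gamma tubulins nucleate microtubules. Tubg1 read 544, 559, 594 and 611, in order of time but over a range of 1.12-fold, the slope being 0.04 ± 0.06 log2 units per hr (SE), smaller than its SE. Tubg2, the isotype enriched in brain, read 709.6, 664, 708 and 619.9. Its probe set carries the platform's suffix for a sequence family and may read similar genes too. Of the proteins of the gamma tubulin ring complex, Tubgcp3 varied most and read 165, 342, 259 and 341, a range of 2.08-fold that was 1.32-fold without the 1 hr array, while Tubgcp4 read 257, 304, 392 and 282. A second Tubgcp4 probe set, at 76.4, 8.6, 74.6 and 93, did not pass the filter.

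Of the 9 probe sets tested for microtubule-associated proteins, 0 had a 2-fold range. Of all probe sets tested, 16.4% had one from 300 to 1000, 3.91% from 1000 to 3000 and 2.35% over 3000. The class had a median SD of log2 intensity of 0.128, the lowest of the 14 classes over the 4 arrays. Other classes were lower in some settings: capping protein without the 2 hr array (0.0958 against 0.135), alpha tubulins with no filter (0.132 against 0.146) and gamma tubulins with the filter at the 60th percentile (0.0924 against 0.128). Mapt, which encodes tau, the protein that stabilises axonal microtubules, was measured by 3 probe sets. They read 7094, 8217, 7938 and 8561; then 3954, 4156, 3875 and 4276; and 3758, 3168, 3112 and 3499.9 at 1, 2, 4 and 6 hr. The ranges were 1.21-fold, 1.10-fold and 1.21-fold, and the third probe set was highest at 1 hr where the others were highest at 6 hr. Map1s, a relative of Map1a and Map1b, was the steadiest tested member of all and read 1513, 1546, 1541 and 1421. The LC3 genes Map1lc3a and Map1lc3b, named for binding MAP1 but best known as tags of autophagosome membranes, had 3 of 3 probe sets past the filter. Map1lc3b read 4593, 5183, 4046 and 4504 on its brighter probe set and 979, 864, 893 and 999 on the other, and Map1lc3a read 1435, 1083, 1018 and 1115. Map11, matched by its symbol, read 1047, 968, 1222 and 1239.8 on 1 probe set and 694, 949, 911 and 745 on the other, with the largest SD in the class (0.219).

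The probe sets of the large neuronal MAPs were dim. Map2, the dendritic counterpart of tau and abundant in pyramidal dendrites, read 56, 139.6, 105 and 157 and did not pass the filter. Map1b read 4.5, 19.3 and 20.8 at 1, 2 and 4 hr, all under the floor, and 128 at 6 hr, so it was at least 2.35-fold higher at 6 hr on the floored scale; it did not pass the filter either. Whether these probe sets were above background is unknown, and such values do not show that the transcripts were scarce.

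Stathmins sequester tubulin dimers and promote disassembly of microtubules, and the 6 probe sets tested stayed within 1.60-fold. Stmn2, a marker of growing and regenerating axons, read 3330.3, 3508, 4229 and 3787 on its brightest probe set, and 2551, 3599.5, 2302 and 3224 on the next. The highest and lowest arrays of these differed, 4 hr being the highest of the first and the lowest of the second. Stmn3 read 3560.0, 3983, 4039.7 and 3488, and Stmn4 read 2929.9, 2803, 2374 and 2336, in falling order of time (slope -0.07 ± 0.06 log2 units per hr, SE). Stmn1 read 3236, 3644, 3199.7 and 2278, with the 6 hr array low, and its range of 1.60-fold was 1.14-fold without that array. Its slope of -0.11 ± 0.07 was, with that of Kif5b at -0.11 ± 0.08 (SE), among the most negative of the tested members after Nefm and Kifc3. The dim probe sets of Stmn1 (13.9, 20, 62 and 40.6) and Stmn2 (42.5, 87.1, 20.3 and 138) did not pass, and the second of Stmn3 read 559, 589, 719 and 613.

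Kinesins were the largest class and the dimmest, with 29 probe sets for 22 genes and a median mean intensity of 97.9. Of these 13 passed the filter and 16 did not, a smaller share passing than the 60% of all probe sets. The median SD of log2 intensity of the 13 was 0.352. Grouped by known role, after the values had been seen, the transport kinesins of the KIF1, KIF3 and KIF5 families with Kif16b and Kifap3 had 8 of 15 probe sets past the filter. Mitotic kinesins, which act in the spindle of dividing cells, had 2 of 8 past it. Both groups thus lay under the share of all probe sets. The 2 mitotic kinesins past the filter were Kif22 at 649, 652, 902 and 784, and Kif2c at 201, 108, 147 and 115. Kif11, Kif20a, Kif23 and Kif4 each had at least 1 array under the floor on every probe set, and Kif23 read 119 at 1 hr and 13.1 to 38.7 at the other times.

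Subunits of kinesin-2, the heterotrimer of KIF3A, KIF3B and the adaptor KAP3, differed in how far they varied. Kifap3, which encodes the adaptor, read 3148, 4366, 3229 and 3486, and its second probe set was under the floor on all arrays (53.8, 6.5, 4.7 and 13.9). Kif3a read 196, 185, 232 and 249, a range of 1.35-fold, while its second probe set was under the floor at 1, 2 and 4 hr and read 111 at 6 hr. Kif3b read 195, 64.2, 145 and 222, and stood apart below the others at 2 hr by 1.17 log2 units from the nearest; its range of 3.45-fold was 1.53-fold without that array and 1.80-fold with the floor at the 40th percentile. Kif3c, an alternative partner of KIF3A, was on the other hand highest at 2 hr, at 640.2, 1025, 768 and 804.

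Conventional kinesin, the motor of fast axonal transport, pairs KIF5 heavy chains with light chains. Kif5b read 1256, 1409, 816 and 990.1, Kif5a read 223, 259, 149.7 and 343, and both were lowest at 4 hr. Kif5c, dominant in neurons, was read by a probe set at 132, 77.2, 22.2 and 42.3 that did not pass the filter. A second Kif5a probe set, at 63.6, 107.8, 70.9 and 12.9, did not pass either. Klc1 read 3584, 4685, 4665 and 3633 on its brightest probe set, 1255, 1696, 1166 and 1364 on another and 522, 388, 583 and 455 on the dimmest, and these were not all highest on the same array. Klc4 read 692, 566, 619 and 554, and a second Klc4 probe set (28.5 to 197) did not pass. No light chain probe set that passed had a 2-fold range, where 16.4% of all tested did from 300 to 1000 and 3.91% from 1000 to 3000.

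Of the other motors, Kif1a, the motor of synaptic vesicle precursors, read 149.9, 304, 291 and 188, higher at the middle times by a range of 2.03-fold. Kif1c read 409.7, 434, 344 and 429.5, while both Kif1b probe sets, at 6.6 to 123, failed the filter. Kif2a, a depolymerising kinesin that limits branching of axons, read 667, 774, 620.3 and 707. Of the minus-end directed kinesins Kifc2 read 93.7, 159, 181 and 196, in order of time, the slope being 0.18 ± 0.08 log2 units per hr (SE; adjusted p from limma = 0.973), and 1.23-fold in range without the 1 hr array. Kifc3 read 117, 129, 269 and 54.6 and stood apart in 2 ways, above the others at 4 hr and below them at 6 hr, with a range of 4.93-fold; without the 6 hr array the range was 2.31-fold, and with the floor at the 40th percentile 2.18-fold. Its slope, -0.16 ± 0.18 (SE), was 0.42 without the 6 hr array and 0.05 with that floor, and so had no settled sign. The other kinesin probe sets that did not pass were 1 more of Kifc2 (30.3, 12.2, 23.3 and 18.8), 1 each of Kif16b (78.5 to 109.1) and Kifc1 (81.5 to 122.5), and 2 of Kif9, which read 48.5, 33.3, 62.6 and 130.1 on the brighter.

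Cytoplasmic dynein, the motor of retrograde transport, had its low array at 1 hr in 7 of 8 tested probe sets. Dync1h1, the motor heavy chain, read 2338, 3532, 4462 and 3015. The intermediate chains, which bind cargo adaptors, read 3606, 3642, 4268 and 4004 for Dync1i1 and 384, 513, 427 and 606 for Dync1i2. Dynll1, a light chain that also serves as a hub for many partners outside dynein, read 16652, 17747, 17339 and 14840.0 and was the exception, lowest at 6 hr. Over all 7453 probe sets tested 24.3% were lowest at 1 hr.

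Light chains of dynein held the other wide ranges at 2 hr. Dynlrb1, a roadblock light chain, read 1496, 3995, 1609 and 1967, so it stood apart above the others at 2 hr by 1.02 log2 units from the nearest, and its range of 2.67-fold was 1.32-fold without that array. Its second probe set read 592, 851, 612 and 861, with 2 and 6 hr alike, and did not stand apart. Dynll2, a light chain shared with myosin V, read 777, 1789.8, 968 and 938 on 1 probe set and 1005, 1529.7, 1092 and 1133 on the other. Both were highest at 2 hr and lowest at 1 hr, the only gene of the 14 with several tested probe sets to share both. Among those 14 genes the probe sets shared the highest array in 6 and the lowest in 2. The second of the Dynll2 probe sets and that of Dynll1 carry the platform's suffix for a sequence family, so each may read several similar genes. Dynlt1b (26 to 72.4) and Dynlt3 (47.4 to 73.8) did not pass the filter.

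Neurofilament subunits were all highest at 1 hr, where 25.8% of all probe sets tested were, and the medium chain differed most. Nefm read 398, 211, 81.6 and 116 at 1, 2, 4 and 6 hr, a range of 4.88-fold, the slope being -0.37 ± 0.13 log2 units per hr (SE; adjusted p from limma = 0.947). The early arrays were higher than the late ones, though 4 and 6 hr were not in order. Without the 1 hr array the range was 2.59-fold, and with the floor at the 40th percentile 3.23-fold. Nefl, the core light chain, read 692, 498, 572 and 533, and Nefh, the heavy chain of large axons, read 988, 862, 792 and 867. Their ranges of 1.39-fold and 1.25-fold were 1.15-fold and 1.09-fold without the 1 hr array. The proteins form 1 polymer, and each was read here by a single probe set. CA3 pyramidal markers, with 4 of 6 measured, summed to 3814.5, 2459.5, 2654 and 2350.1, and their part was not tested. Nnat (2015 at 1 hr and 744 to 982 later) carried the high sum at 1 hr, while Bok was highest at 4 hr and Socs2 at 2 hr.

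Actin regulators held the widest range of all tested members, in profilin 1, and one of the steady bright signals, in profilin 2. Both bind actin monomers and feed them to growing filaments; profilin 2 is the neuronal form. Pfn1 had 1 probe set, which read 238, 51.1, 83.5 and 672 at 1, 2, 4 and 6 hr, with the 2 hr value under the floor. It was high at 1 and 6 hr and low at 2 and 4 hr, and stood apart above the others at 6 hr by 2.83-fold over the nearest. On the floored scale its range was at least 12.3-fold, at least 4.35-fold without the 6 hr array and 8.05-fold without the 2 hr array. The bound depends on the floor: with the floor at the 40th percentile, which the 2 and 4 hr values both fall under, it was 5.45-fold. Its slope of 0.38 ± 0.28 log2 units per hr (SE) had a limma adjusted p of 1. Without the 6 hr array Pfn1 did not pass the filter. Pfn2 read 10023, 13467, 11237 and 10491, a range of 1.34-fold.

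Cytoplasmic beta actin followed an order like that of Pfn1 on 1 of its probe sets. That probe set of Actb read 865, 366, 444 and 1547, a range of 4.23-fold, with 1 and 6 hr high and 2 and 4 hr low. The range was 2.37-fold without the 6 hr array. Its slope of 0.21 ± 0.17 log2 units per hr (SE; adjusted p from limma = 1) was -0.26 without that array. The other read 2569, 2591, 1938 and 3672, a range of 1.89-fold, also highest at 6 hr but with 1 and 2 hr alike. Both carry platform suffixes for shared sequence, and other actin genes may be read with Actb. The array also carries control probe sets along the Actb transcript, which were left out of the tests. The 3' control read 45986, 41184, 37146 and 52504, the middle one 25045, 28379, 22886 and 32649, and the 5' one 13364, 12885, 11474 and 17542. They too were highest at 6 hr and lowest at 4 hr, but within 1.41-fold to 1.53-fold. These 3 controls and both other Actb probe sets were highest at 6 hr, from 1.27-fold to 2.98-fold over the mean of the other arrays. Dimmer Actb controls with the suffix _st were highest at 6 hr too, by 1.83-fold to 2.15-fold. What RNA these dim controls read was not tested. Over all probe sets tested 23.2% were highest at 6 hr, and all the Actb probe sets read the same 4 RNA samples. The 3' to 5' ratio of the Actb control was lowest on the 6 hr array, at 2.99. That of the Gapdh control was 4.89 there and lowest at 1 hr, at 4.84.

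Actg1, the gamma actin gene, did not share the high value at 6 hr. It read 19073, 22273, 17851 and 18590.2, a range of 1.25-fold with 2 hr highest, and 1.07-fold without that array. Microglial markers, with 7 of 7 measured, summed to 6379, 6893, 5811 and 6850.4. Blood markers, with 2 of 4 measured, summed to 3959, 1987, 2502 and 3181, nearly all of it Hba-a1, while Alas2 read 52.6, 103.4, 57.3 and 30.6 and was highest at 2 hr. Their part in the Pfn1 and Actb values was not tested.

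**Figure D3:**
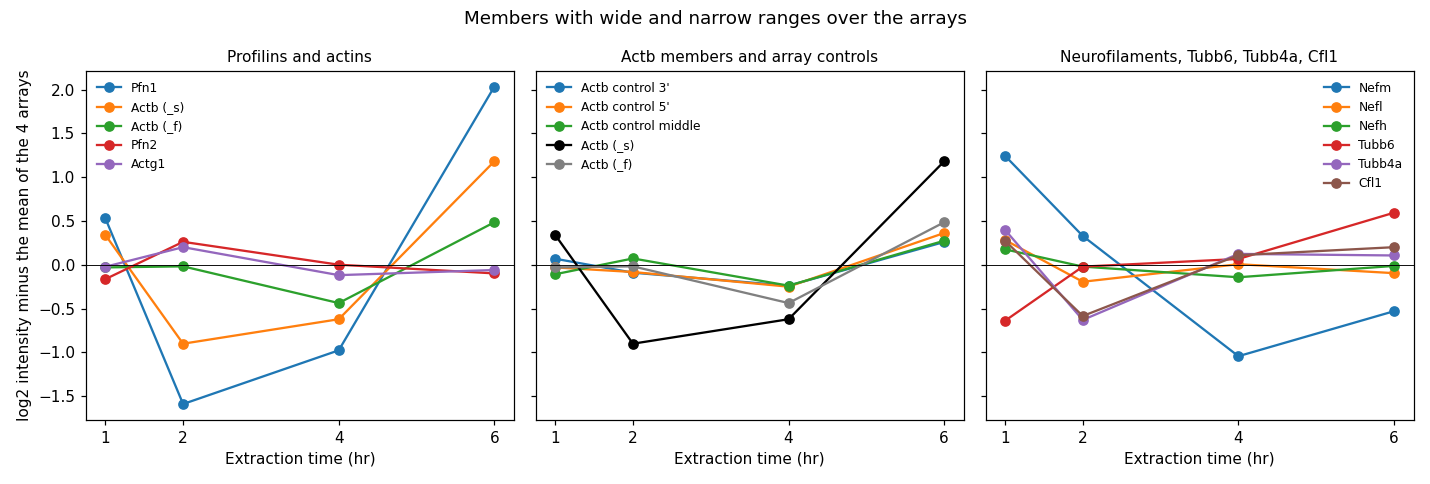
Log2 intensity minus the mean of the 4 arrays at 1, 2, 4 and 6 hr, with values under 54.6 set to that floor, for profilins and actins (left), Actb with its array controls (middle) and neurofilaments with Tubb6, Tubb4a and Cfl1 (right). Pfn1 and 1 Actb probe set are high at 1 and 6 hr, Pfn2 and Actg1 stay near 0, and Tubb4a and Cfl1 dip at 2 hr together.

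The upstream sequences of the profilin, cofilin and gamma actin genes are shown because Pfn1 and Pfn2 differ so widely in range while Actg1 and Cfl1 were bright; these 4 genes were chosen after their values had been seen. They are the 120 bases before the annotated start from RefSeq (GRCm38.p6), given 5′ to 3′ on the gene's strand. Capitals mark the GC box (GGGCGG), the CCAAT box (CCAAT), the TATA box (TATAAA) and the CArG box, each searched on both strands; CArG is the site of serum response factor, known for actin genes. The windows are Pfn1 at chr11:70654651-70654770 (minus strand), Pfn2 at chr3:57847758-57847877 (minus), Cfl1 at chr19:5490335-5490454 (plus) and Actg1 at chr11:120348496-120348615 (minus).
Pfn1: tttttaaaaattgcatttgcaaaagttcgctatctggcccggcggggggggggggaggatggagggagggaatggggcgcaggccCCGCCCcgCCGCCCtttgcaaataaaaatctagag
Pfn2: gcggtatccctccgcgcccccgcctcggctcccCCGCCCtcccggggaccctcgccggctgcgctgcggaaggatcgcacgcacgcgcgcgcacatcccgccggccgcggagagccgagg
Cfl1: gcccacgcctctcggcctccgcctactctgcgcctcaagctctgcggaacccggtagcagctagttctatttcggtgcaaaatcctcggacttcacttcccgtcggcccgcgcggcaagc
Actg1: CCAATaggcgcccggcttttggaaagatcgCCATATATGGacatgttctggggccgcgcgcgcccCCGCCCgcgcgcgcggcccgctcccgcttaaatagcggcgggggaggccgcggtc

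In these windows Pfn1 held 2 GC boxes, Pfn2 held 1, Cfl1 held none of the 4 motifs, and Actg1 held a GC box, a CCAAT box and a CArG box. Promoter windows of 250 bases before to 50 after the start were found for 57 of the 79 genes, and Actb had none. A GC box was in 70.2% of them, against 59.3% of 6577 array genes and 35.9% of all 27018 promoters of the table. A CArG box was in 2 of the 57 (3.5%, against 1.6% of the array genes), Actg1 and Arpc4. For the CCAAT box the shares were 38.6% and 38.3%, and for the TATA box 10.5% and 10.4%. A match is a string of letters and not a measured site.

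Cofilins sever and depolymerise actin filaments. Cfl1, the main form in brain, read 5484, 3022, 4888 and 5209, with only the 2 hr array low, by 0.78 log2 units from the mean of the others, and its range of 1.81-fold was 1.12-fold without that array. This was the array on which Tubb4a was low by 0.84. Cfl2, the muscle form, read 337, 381, 236 and 290.0, and its second probe set (18.3 to 72.9) did not pass.

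Filament nucleators and caps had no 2-fold range in any tested probe set. Their mean intensities were from 642 to 11003, where such ranges are less frequent. Of all probe sets tested, 16.4% had one from 300 to 1000, 3.91% from 1000 to 3000 and 2.35% over 3000. Within the Arp2/3 complex, Actr3, an actin-related core subunit, read 5459, 6000.0, 5582 and 5911, a range of 1.10-fold. Arpc2, which binds the mother filament, read 11994, 9903, 9664 and 12453, and Arpc1a read 1458, 2199.7, 2393 and 1840.2, the largest SD of the class (0.316). Arpc2 was higher at 1 and 6 hr and Arpc1a at 2 and 4 hr, so the subunits did not share an order. Arpc4 read 1264, 874, 1131 and 1106, Arpc5 read 768, 675, 577 and 548 in falling order, and Arpc5l read 578, 575, 903 and 698. A second Arpc5l probe set was under the floor on all arrays.

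Capping protein is a dimer of an alpha and a beta subunit that closes barbed ends. Capza2 read 3867, 4592, 3442 and 4026, Capza1 read 636, 831, 691 and 699, and both were highest at 2 hr. Capzb read 2165, 1925, 2172 and 2236 on its brightest probe set and 1584, 2180.3, 1901 and 2352 on the next; both were highest at 6 hr, while the third, at 152, 56, 151 and 41.3, did not pass. Capza3, the testis form, lay between 7.5 and 32.9, under the floor on all arrays. Of the other actin-related proteins, Actr1a, which forms the short filament of the dynein cofactor dynactin, had 0 of 2 probe sets past the filter (73.6 to 148 and 15.4 to 48.4). Actr6, a subunit of a chromatin remodelling complex and not of the cytoskeleton, read 414, 408, 226 and 390.0, a range of 1.83-fold that was 1.06-fold without the 4 hr array.

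By class, the median SD of log2 intensity ran from 0.128 for microtubule-associated proteins through 0.161 for stathmins, 0.163 for alpha tubulins, 0.167 for capping protein, 0.177 for gamma tubulins and 0.203 for beta tubulins. It was 0.206 for neurofilaments, 0.223 for the Arp2/3 complex, 0.225 for kinesin light chains and 0.292 for dyneins. Profilins and cofilins had 0.347, kinesins 0.352 and cytoplasmic actins 0.377, and the single Arp outside Arp2/3 that passed had 0.419. The classes of wider spread hold from 1 to 13 tested probe sets, and within each the spread of single probe sets overlapped that of the steady classes. No test was made between classes. The classes were not matched for mean intensity, so their order cannot be told apart from brightness. Tested kinesins had a median mean intensity of 244, and all probe sets tested from 100 to 300 had a median SD of 0.462. For the microtubule-associated proteins tested that median was 1505, and all probe sets tested from 1000 to 3000 had a median SD of 0.199.

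**Figure D4:**
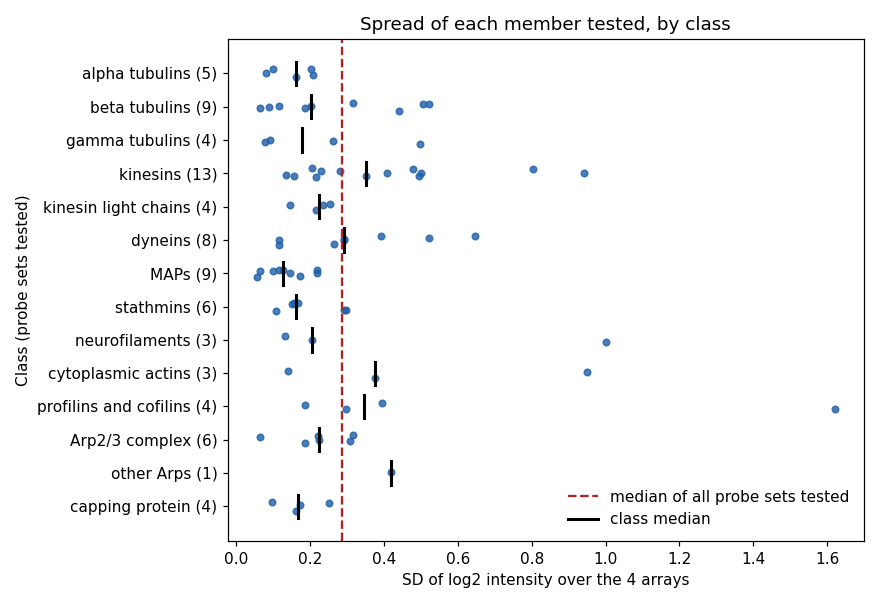
SD of log2 intensity over the 4 arrays for each of the 79 probe sets tested, by class, with the number tested beside the class name; black bars are class medians and the dashed line is the median of all 7453 probe sets tested, 0.286. Points of different classes overlap, and Pfn1 at 1.62, Nefm at 1.00 and Actb at 0.95 lie far to the right of their class medians.

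A list of 89 other cytoskeletal genes gave the surroundings of these genes. Of them 67 were measured, by 91 probe sets, and 78 of these passed the filter. Past the adjusted threshold of the slope there were 0, with 3 at an unadjusted p under 0.05, and 19 of the 78 (24.4%) had a range of 2-fold or more, against 25.3% of all. Their median SD of log2 intensity was 0.286, equal to that of all probe sets tested. The largest SDs were those of Vasp, an actin elongation factor, at 249, 308, 228 and 14 at 1, 2, 4 and 6 hr; Ndel1, a dynein regulator, at 123, 40.6, 134 and 286; and Limk1, the kinase that inactivates cofilin, at 417, 1496, 1557 and 666. The last was high at 2 and 4 hr, when Pfn1 was low, but its second probe set read 475, 346, 218 and 456, the opposite order. The Vasp value of 14 and the Ndel1 value of 40.6 were under the floor. Other Ndel1 probe sets were steady, at 2562, 2649, 3018 and 2920.5 (1.18-fold) and at 346, 315, 380 and 330.5 (1.21-fold). The brightest were Tmsb4x, the actin-sequestering thymosin beta 4, at 18295, 20377, 17449.8 and 18139, the small GTPase Rac1 at 13038, 14357, 11569 and 13699, and Tmsb10 at 5183, 7059.8, 7370.2 and 5079.7.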

How the data were processed

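The authors deposited 1 linear intensity per probe set and array, all above 0, for 12488 probe sets; the summary method is not given in the sources. The 2% trimmed mean was 500.3 on each array, so the arrays had been scaled before deposit, a reading from the values. No detection calls were used. Gene names came from the platform annotation, and all 79 member genes matched a RefSeq gene of the same symbol. Of 121 matching probe sets, 6 array controls for Actb and 4 with several symbols were left out.

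Values under 54.6, the 25th percentile, were set to that floor before log2 values were taken, and the 7453 probe sets with mean log2 above the 40th percentile were tested. A line over the hours was fitted in R 4.3.3 by limma 3.58.1 (moderated, 2 residual degrees of freedom, two-sided, Benjamini-Hochberg adjustment at 0.05). Separate animals are not stated, so p-values measure only how these arrays scatter about a line, and that scatter may be technical. The fit was also run on simulated data, and the outcome is not given here. The number of arrays limits the precision. In full on all 4 arrays were given every probe set of Pfn1, Actb, Actg1, Mapt, Map2 and neurofilaments, the brightest and widest of each class, those standing apart, and the steepest slopes; others were added for their roles after their values were seen. Members and lists were chosen with earlier results of these data known. Alternatives covered scaling, floor, filter, time axis, variance model, fold and each array left out.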

Additional observations from a re-analysis of the deposited data

How the results depend on the processing

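The trend test called 0 cytoskeletal probe sets, and 0 of all, under every alternative run, with 1 to 5 cytoskeletal ones at an unadjusted p under 0.05. The 5 of 111 came with no filter, where 781 of all 12422 were under 0.05. With the filter at the 60th percentile it was 1 of 67, against 229 of all 4969. Counts standing apart above and below were 3 and 2. They were 1 and 1 after quantile normalization (84 and 494 of all 7453) and 3 and 1 with a common median (83 and 487). With the floor at the 40th percentile they were 3 and 0 (141 and 135 of all). With no filter they were 7 and 2 of 111, against 672 and 533 of all 12422. With a filter at the 60th percentile they were 1 and 0 of 67, against 12 and 71 of all 4969. At 1.5-fold they were 6 and 9 of 79, against 548 and 1222 of all 7453. At 3-fold they were 0 and 0, against 10 and 114 of all. With each array left out they were 2 to 4 above and 2 to 4 below, the 4 below being without the 4 hr array. Over all 7453 there were then 183 to 231 above and 500 to 593 below. Ranges of 2-fold or more numbered 14, but 26 of 111 with no filter (29.2% of all probe sets), 5 of 67 with the filter at the 60th percentile (10.9% of all) and 9 to 11 with each array left out (17.2% to 18.4% of all). With a common median the median differences at 1, 2 and 4 hr were -0.18, 0.32 and -0.11, and with no filter that at 2 hr was 0. No paired analysis was possible because each time has 1 array. Dim probe sets limit the readings of kinesins, Map2 and Map1b.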

Other observations

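Probe sets that carry several symbols, and so belong to no single gene, were read apart. One for the dynein light chains Dynlt1a and Dynlt1c gave 8474.5, 7475, 14183 and 17431 at 1, 2, 4 and 6 hr, higher on the 4 and 6 hr arrays than on the 1 and 2 hr arrays. Another, for these and their close copies Dynlt1f and Dynlt1b, gave 172, 146, 200.4 and 131, with no such split. For Tuba3a and Tuba3b 1 probe set gave 389, 336, 486 and 457, and the other was under the floor at 1, 2 and 4 hr and read 75.7 at 6 hr. None of these has a replicate.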
